A study of Homo sapiens with 6 samples.

Results

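RNA from HEK293 cells that had received the same scrambled siRNA was broken into fragments by RNase I in 1 library and by alkaline hydrolysis in another, and the 3' ends of its polyadenylated transcripts were counted. These 2 libraries were chosen by their labels, out of 6 in the series. HEK293 is an established human embryonic kidney cell line. The assay was A-seq, which captures poly(A) RNA on oligo(dT) beads, fragments it and sequences the end that carries the tail. The other 4 libraries were cells without siRNA, cells with an siRNA against CF Im25 and cells with an siRNA against CF Im59, all fragmented by alkaline hydrolysis, and cells with an siRNA against CF Im68, fragmented by RNase I. Cells given an siRNA were transfected with a lipid reagent and harvested after 3 days, and the scrambled siRNA carries the label scrambled-A in both libraries. The labels name the RNase I library as the control for the CF Im68 knockdown. With 1 library in each group the spread between replicates is unknown, and p-values across sites or loci are not given. The labels do not say whether the 2 libraries came from the same culture, transfection or sequencing run, so fragmentation and any such difference cannot be told apart. Both RNase I libraries carry the same leading number in the submitters' sample codes and all 4 alkaline libraries carry a different one. What that number stands for is not given.

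A messenger RNA receives its 3' end when a protein complex cuts the nascent transcript at a poly(A) site and a poly(A) polymerase adds the tail. Many transcripts have several such sites, and use of an upstream (proximal) site shortens the 3' untranslated region. Cleavage factor Im, made of a small CF Im25 subunit with CF Im59 or CF Im68, binds RNA upstream of the cleavage site and is known to influence which site is used. RNase I is an endonuclease that cuts single-stranded RNA next to any base. Alkaline hydrolysis breaks the same backbone chemically, through the hydroxyl group of the ribose, without an enzyme.

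In A-seq both kinds of fragment are copied by the same primer. It carries an anchor base meant to pair with the last base before the tail, followed by T residues that pair with the beginning of the tail. By design the fragmentation step sets the far end of the insert, and the end counted here is meant to be where the tail begins. Whether fragmentation also affects the counted end was not tested. The adapter is shown because its leading A residues, in capitals, are the tail bases that mark a read as reaching a poly(A) site, and it was the same in all 6 libraries.
3' adapter with the tail bases in capitals: AAAAAAtggaattctcgggtgccaagg

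The RNase I library held 5351980 reads and the alkaline library 9690883, against 10659900 to 18183644 in the other 4. Ends within 25 nt of a shared peak were joined into 49965 poly(A) sites, and these held 91.7% of the reads of the RNase I library and 91.5% of those of the alkaline library. The RNase I reads lay on 517613 positions, and the alkaline reads on 495884 when thinned to the same total. Thinned likewise, the other libraries lay on 496193 (CF Im68 siRNA), 467043 (no siRNA), 520518 (CF Im25 siRNA) and 462702 (CF Im59 siRNA), so the methods overlapped. The levels of 24326 sites ranked alike within a method and less so between methods: Spearman's rho was 0.447 between the scrambled siRNA libraries, 0.930 between the alkaline libraries without siRNA and with scrambled siRNA, and 0.816 between both RNase I libraries. These are descriptions over sites called on the pool of all libraries. Annotation and sequence of the genome build of the files (hg19) were not used here, so sites are given by coordinates, no gene is named and the cell line was not checked against marker genes. Neighbouring sites of a strand were chained into 1 unit as long as no gap exceeded 5 kb. Such a unit may span the ends of adjacent transcripts and does not stand for a gene.

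Ends within a poly(A) site were more spread out in the RNase I library, and in the medians over sites the extra ends lay upstream. Over the 2547 sites with at least 200 reads in both libraries, the median probability that 2 reads of a site end at the same nucleotide was 37.8% after RNase I and 46.0% after alkaline hydrolysis. It was 36.7% in the CF Im68 siRNA library, the other one made with RNase I, and 45.5% to 47.2% in the other 3 alkaline libraries. The median difference per site, RNase I minus alkaline, was -6.83 points (interquartile range -15.3 to -0.564), and the probability was lower after RNase I at 1962 sites (77.0%). Between the alkaline libraries without siRNA and with scrambled siRNA the median difference was 0.609 points (interquartile range -1.47 to 2.87) over 5791 sites. At 1564 of 2343 sites (66.8%) both RNase I libraries lay below all 4 alkaline libraries, and at 296 (12.6%) both lay above them.

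A reference nucleotide for each site was taken from the library without siRNA and the CF Im68 siRNA library at equal weight, so that neither scrambled siRNA library set it. The median share of reads at this nucleotide was 53.7% after RNase I and 63.3% after alkaline hydrolysis. Upstream of it lay a median of 25.4% of the reads after RNase I and 13.8% after alkaline hydrolysis, and downstream 9.95% and 9.98%. In the medians the difference therefore sat on the upstream side. The upstream share was higher after RNase I at 79.0% of sites, and its median change over all sites was 6.75 points. This median was 3.26 points when only ends within 10 nt were joined to a site. Downstream, single sites moved in both directions, with a median change of 0.250 points (interquartile range -4.67 to 3.13). The downstream share of both RNase I libraries lay below all 4 alkaline libraries at 791 of 2343 sites (33.8%) and above them at 814 (34.7%). At 1642 of 2343 sites (70.1%) the upstream share of both RNase I libraries exceeded that of all 4 alkaline libraries. The libraries that set the reference nucleotide are among those ranked here, so these counts are descriptions. The standard deviation of the end position within a site had a median of 4.59 nt after RNase I and 3.30 nt after alkaline hydrolysis.

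The excess was greatest between 25 and 13 nt upstream of the reference nucleotide. That stretch held 7.71% of the reads after RNase I and 2.95% after alkaline hydrolysis, a ratio of 2.61, in the mean over sites with all ends within 60 nt counted. In the other libraries it held 7.83% (CF Im68 siRNA), 2.57% (no siRNA), 2.88% (CF Im25 siRNA) and 2.79% (CF Im59 siRNA), so the 2 methods did not overlap. The stretch from 60 to 26 nt upstream held 2.07% after RNase I and 1.13% after alkaline hydrolysis, and the 12 nt next to the reference nucleotide 20.2% and 15.9%. The profile had a local maximum 18 nt upstream in the RNase I libraries, with 0.905% of the reads at that single nucleotide for scrambled siRNA and 0.886% for CF Im68 siRNA, against 0.214% to 0.255% in the 4 alkaline libraries. The alkaline libraries had lower local maxima close by. With scrambled siRNA theirs lay 16 nt upstream, at 0.364%, and in the other alkaline libraries 15 to 17 nt upstream, at 0.308% to 0.338%. Downstream, the stretch from 13 to 25 nt was lower after RNase I, at 1.95% against 2.36%.

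**Figure D1:**
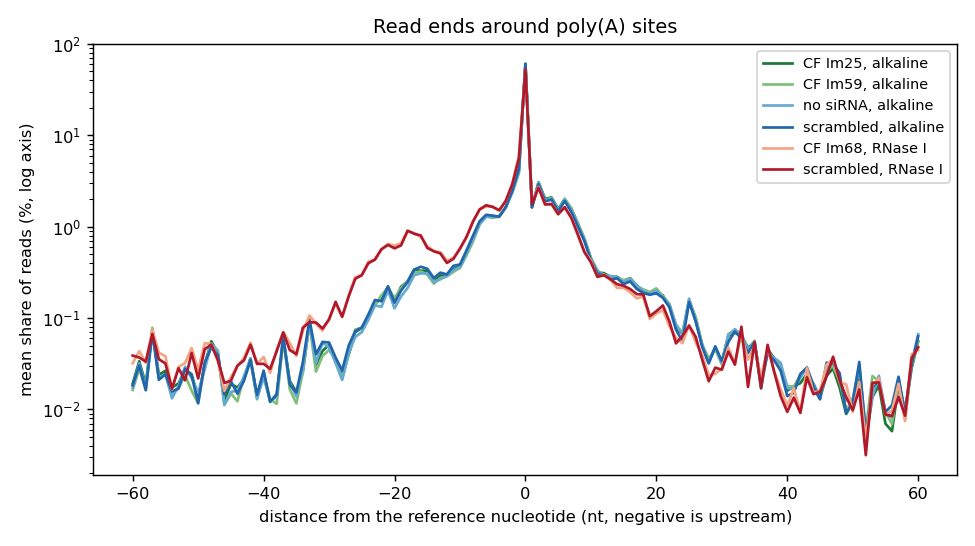
Mean share of reads (%, log axis) at each nucleotide from 60 nt upstream (negative) to 60 nt downstream of the reference nucleotide of 2547 poly(A) sites, with 1 line for each of the 6 libraries. The RNase I lines (red and orange) both lie above the 4 alkaline lines at all 32 nucleotides from 32 to 1 nt upstream and at 22 of the 28 farther upstream, with 0.905% against 0.248% at 18 nt upstream in the scrambled siRNA libraries.

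The most used nucleotide was the same in both scrambled siRNA libraries at 2030 of the 2547 sites (79.7%). It lay upstream after RNase I at 351 sites (13.8%) and downstream at 166 (6.52%). At 114 sites it lay at least 13 nt upstream, and at 31 at least 13 nt downstream. Between the alkaline libraries without siRNA and with scrambled siRNA it was the same at 95.2% of 5791 sites, and between both RNase I libraries at 90.4% of 3479.

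Single sites showed how far this went in either direction. At chromosome 14, plus strand, position 90871952, the probability that 2 reads share a nucleotide was 22.4% after RNase I (359 reads) and 88.7% after alkaline hydrolysis (11921 reads), and it was 20.1% with CF Im68 siRNA and 87.6% to 90.1% in the other 3 libraries. Upstream of the reference nucleotide lay 56.3% of its reads after RNase I, 63.2% with CF Im68 siRNA and 2.24% in the alkaline scrambled siRNA library. At chromosome X, minus strand, position 64732463, the probability was 27.4% (512 reads) against 87.3% (211 reads), with 31.0% for CF Im68 siRNA and 83.2% to 91.9% in the other 3. At these sites, picked for their difference, the 2 RNase I libraries and the 4 alkaline libraries formed separate groups. Only the scrambled siRNA was used with both methods. The site at chromosome 12, plus strand, position 16056409, likewise had 31.1% (493 reads) against 88.6% (4773 reads), with 29.5% for CF Im68 siRNA and 88.4% to 90.8% in the other 3. A minority of sites went the other way. At chromosome 1, plus strand, position 29503026, the probability was 85.2% after RNase I (359 reads) and 24.3% after alkaline hydrolysis (436 reads), with 70.5% for CF Im68 siRNA and 23.5% to 30.2% in the other 3. The share of its reads at the reference nucleotide was 47.0 points higher after RNase I (95% Newcombe interval 41.3 to 52.2, counting error only). At chromosome 1, minus strand, position 38423631, it was 85.4% (210 reads) against 30.4% (310 reads), with 66.8% for CF Im68 siRNA and 37.6% to 41.3% in the other 3. At chromosome X, minus strand, position 123459978, it was 82.1% (675 reads) against 33.6% (2109 reads), with 88.9% for CF Im68 siRNA and 40.01% to 46.4% in the other 3. In all 6 of these sites both RNase I libraries lay outside the range of the 4 alkaline ones.

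The reads at alternative poly(A) sites were also divided differently in the 2 scrambled siRNA libraries, in both directions. Site use here means shares of counted reads, and whether the cells chose sites differently was not tested. For the 2 most used sites of a unit, the proximal share is the percentage of their reads at the upstream site. Of 5014 loci with at least 50 reads in both libraries, 1237 (24.7%) had a proximal share at least 20 points higher after RNase I and 1056 (21.1%) at least 20 points lower, with a 95% Newcombe interval of the difference that excluded 0. Called loci were thus 45.7% of those tested. By the same rule 3.73% of 7177 loci were called between the alkaline libraries without siRNA and with scrambled siRNA, 87 (1.21%) higher and 181 (2.52%) lower. That comparison shares the alkaline scrambled siRNA library, and its counts are set beside the others as a description.

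The balance of proximal and distal use moved little. The median proximal share was 38.4% after RNase I and 37.3% after alkaline hydrolysis, and the median change was 1.62 points (interquartile range -16.2 to 19.7). That median was 5.30 points when sites were formed with ends within 10 nt, 0.358 points with 50 nt and 0.455 points for pairs at least 100 nt apart. The median size of the change was 17.8 points, against 4.14 points between the 2 alkaline libraries. A change of at least 40 points was seen at 511 loci upward and 447 downward, against 1 and 3 between the alkaline libraries. Which of the 2 sites held more reads switched at 1361 loci (27.1%). At 1822 of the 5014 loci (36.3%) both RNase I libraries lay above all 4 alkaline ones in proximal share, and at 1262 (25.2%) both lay below, although these libraries also differ in siRNA.

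**Figure D2:**
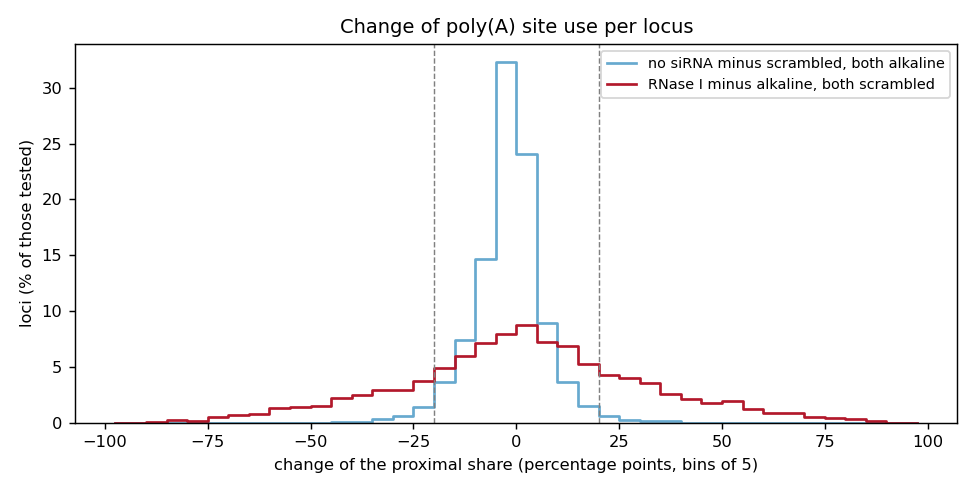
Change of the proximal share (percentage points, bins of 5) against the percentage of tested loci, for RNase I minus alkaline with scrambled siRNA (red, 5014 loci) and for no siRNA minus scrambled siRNA, both alkaline (blue, 7177 loci). Dashed lines mark 20 points in either direction, and 45.7% of the loci of the red curve and 3.73% of the blue one were called.

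In the 6 largest rises most reads lay at the distal site after alkaline hydrolysis and at the proximal site after RNase I. On chromosome 21, plus strand, the proximal site at 18939265 and the distal site at 18940076 gave a proximal share of 97.3% after RNase I (148 reads) and 8.85% after alkaline hydrolysis (113 reads), a rise of 88.4 points (95% Newcombe interval 80.6 to 92.7). The other shares were 92.2% (CF Im68 siRNA), 4.93% (no siRNA), 2.27% (CF Im25 siRNA) and 10.2% (CF Im59 siRNA). Both RNase I libraries were high here and all 4 alkaline libraries low. On chromosome 2, plus strand (157442658 and 157442915), the share was 88.8% (143 reads) against 1.83% (1258 reads), with 93.2% for CF Im68 siRNA and 1.87%, 7.60% and 1.69% for no siRNA, CF Im25 siRNA and CF Im59 siRNA. On chromosome 5, plus strand (172561754 and 172564761), it was 91.8% (134 reads) against 7.77% (103 reads), with 76.9% for CF Im68 siRNA and 8.79%, 14.5% and 9.64% in the same order. The sites of these 3 loci lay 811, 257 and 3007 nt apart, and the groups did not overlap at any of them.

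The other 3 rises were between sites less than 100 nt apart. On chromosome 7, minus strand (44873865 and 44873835, 30 nt apart), the proximal share was 97.7% after RNase I (511 reads) and 11.0% after alkaline hydrolysis (328 reads), with 97.9% for CF Im68 siRNA and 10.9% to 12.5% in the other 3 alkaline libraries. On chromosome 4, plus strand (166264222 and 166264313, 91 nt apart), it was 93.9% (477 reads) against 10.4% (135 reads), with 95.9% for CF Im68 siRNA and 6.05% to 21.1% in the other 3. On chromosome 20, minus strand (32677275 and 32677239, 36 nt apart), it was 83.5% (230 reads) against 0.225% (445 reads), with 86.1% for CF Im68 siRNA and 0% to 1.40% in the other 3. At distances this short both sites can belong to 1 cluster of cleavage positions.

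The 6 largest falls were the mirror image. On chromosome 22, minus strand (38687924 and 38686698, 1226 nt apart), the proximal share was 8.77% after RNase I (1562 reads) and 94.7% after alkaline hydrolysis (5239 reads), a change of -85.9 points (interval -87.3 to -84.3). It was 4.83% with CF Im68 siRNA and 93.8%, 93.5% and 95.9% for no siRNA, CF Im25 siRNA and CF Im59 siRNA. This locus had the most reads of the 12 described, and its RNase I and alkaline values again formed separate groups. On chromosome 16, minus strand (56466334 and 56463065, 3269 nt apart), the share was 3.52% (426 reads) against 87.7% (652 reads). It was 37.1% for CF Im68 siRNA and 87.9%, 75.0% and 82.7% in the other 3, so the RNase I libraries differed from each other here while both stayed below the rest. On chromosome 13, plus strand (31905002 and 31906410, 1408 nt apart), the share was 2.16% (185 reads) against 85.3% (129 reads), with 2.44% for CF Im68 siRNA and 71.3% to 84.9% in the other 3. On chromosome 12, minus strand (102468021 and 102467975, 46 nt apart), it was 12.6% (151 reads) against 94.4% (287 reads), with 16.4% for CF Im68 siRNA and 88.2% to 94.1% in the other 3.

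The remaining 2 falls lay on chromosomes 16 and 15. On chromosome 16, plus strand (450648 and 450754, 106 nt apart), the share was 8.14% (1475 reads) against 89.4% (1030 reads), with 11.4% for CF Im68 siRNA and 77.1% to 78.4% in the other 3. On chromosome 15, minus strand (23005780 and 23005363, 417 nt apart), it was 1.89% (212 reads) against 82.6% (144 reads), with 6.10% for CF Im68 siRNA and 75.7% to 80.6% in the other 3. In all 12 loci both RNase I libraries lay on the same side of the 4 alkaline libraries.

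**Figure D3:**
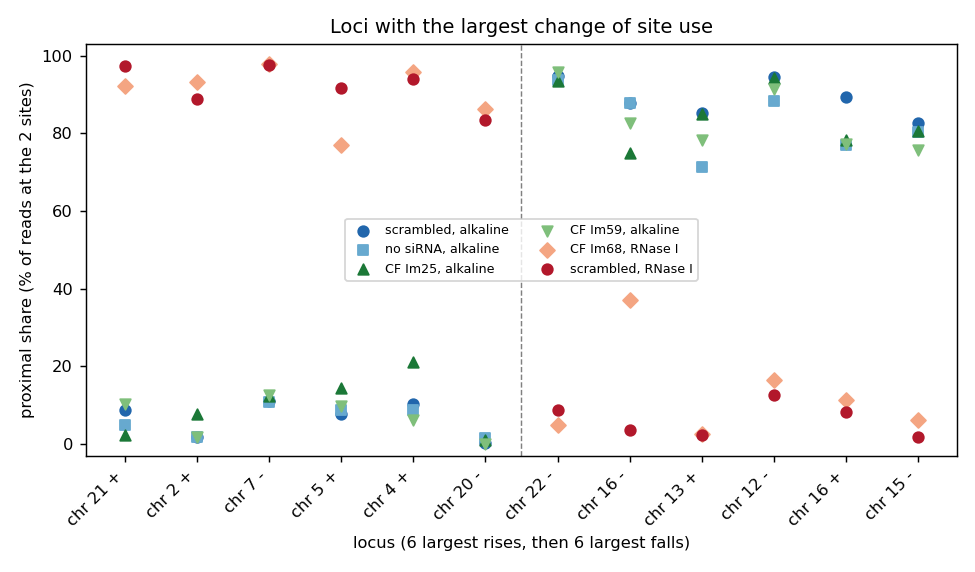
Proximal share (% of reads at the 2 sites of a locus) in the 6 libraries at the 6 loci with the largest rise (left of the dashed line) and the 6 with the largest fall (right) between the scrambled siRNA libraries; each point is 1 library. RNase I libraries (red circles and orange diamonds) sit opposite the 4 alkaline libraries at every locus, with the CF Im68 siRNA value of 37.1% on chromosome 16, minus strand, nearest to them.

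The difference in site use depended little on the distance between the sites, except at the shortest distances. The median size of the change ranged from 16.8 to 19.6 points over 7 classes of distance from under 100 nt to at least 5000 nt. For pairs under 100 nt apart, 30.6% of 736 loci were called higher and 14.7% lower, with a median change of 7.17 points. For the 1288 pairs from 2000 to 5000 nt apart, 23.4% were called higher and 22.4% lower, with a median change of 0.0556 points. The excess of rises was concentrated at 26 to 39 nt, where 104 of 273 loci (38.1%) were called higher and 21 (7.69%) lower and the median change was 13.6 points. At 60 to 99 nt, 24.4% of 279 loci were called higher and 19.7% lower. These splits under 100 nt were chosen after the data had been seen.

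In units with 3 sites no position along the transcript was favoured by more than 1.47 points in the mean. Over 1612 such units, the share of the most upstream site changed by a mean of 0.310 points, that of the middle site by 1.16 points and that of the most downstream site by -1.47 points. The median size of the change at the same positions was 8.84, 11.7 and 11.2 points. Between the alkaline libraries without siRNA and with scrambled siRNA, the means over 2092 units were -0.910, -0.893 and 1.80 points. The median sizes there were 2.69, 3.03 and 3.44 points.

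The reads of neighbouring sites changed almost without relation to each other. For 4212 pairs with at least 50 reads at each site in both libraries together, Pearson's r between the log2 ratios of the proximal and the distal site (RNase I over alkaline) was 0.043, against 0.338 over 5546 such pairs for the alkaline libraries without siRNA and with scrambled siRNA. In 769 pairs (18.3%) the sites moved at least 2-fold in opposite directions, and in 843 (20.0%) at least 2-fold in the same direction. Between the alkaline libraries these counts were 10 (0.180%) and 104 (1.88%). Within each pair of libraries the points share both libraries and their depth, and the r values are descriptions. By distance r lay between -0.0858 and 0.123 in the 7 classes. For the alkaline libraries it was 0.458 under 100 nt and 0.0788 from 5000 nt.

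Total reads per unit differed as widely as site use. Of 14135 units that reached 50 reads in either library, 3365 (23.8%) were at least 2-fold higher after RNase I and 4925 (34.8%) at least 2-fold lower, relative to all reads in nuclear units and with the exact 95% interval of that ratio not reaching 1. Together these were 58.6% of the units. Between the alkaline libraries without siRNA and with scrambled siRNA, 8.59% of 16791 units were called, 721 (4.29%) higher and 722 (4.3%) lower. The log2 ratio had a standard deviation of 2.02 over units between the methods and of 0.59 between the alkaline libraries. Differences of at least 8-fold were seen at 816 units upward and 1077 downward, against 6 and 8. At 4149 of the 14135 units (29.4%) both RNase I libraries lay above all 4 alkaline ones, and at 5412 (38.3%) both lay below. A unit could be tested through only the scrambled siRNA library in which it was high, and the alkaline one was the deeper. These counts are therefore descriptions only.

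The excess of lower units depended on depth and scaling. The median log2 ratio was -0.32, and 40.6% of the called units were higher. With the alkaline library thinned to the total of the RNase I library the median was -0.05 and 49.2% of the called units were higher. TMM scaling moved every log2 ratio by 0.18 and median-of-ratios scaling by 0.22, which left medians of -0.14 and -0.10. With these settings between 57.6% and 58.2% of the units were called. Differences in unit totals are thus relative to the other units.

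Units with a single poly(A) site varied most. Among 5560 such units the standard deviation of the log2 ratio was 2.59, with 26.1% called higher and 46.6% lower. Among 528 units with 7 to 32 sites it was 1.12, with 23.7% called higher and 11.6% lower. The median log2 ratio went from -0.78 in units with 1 site through -0.17 in units with 3 sites to 0.20 in those with 7 to 32. A unit was tested when either library reached the minimum of reads, and the alkaline library was the deeper. Over all units, thinning the alkaline library moved the median from -0.32 to -0.05. The classes by number of sites were not thinned, so how much of their differences depends on depth was not tested. Sites taken singly also differed widely. Of 14314 sites with at least 100 reads in both libraries together, 63.8% differed by at least 2-fold, against 8.48% of 19946 between the alkaline libraries.

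The 6 units that were highest after RNase I relative to alkaline hydrolysis were low in all 4 alkaline libraries. Levels are given as CPM, which are reads scaled to a fixed total, here that of the reads in nuclear units. The unit at chromosome 12, minus strand, from 21788276 to 21791324, with 3 sites, had 4006 CPM after RNase I (18782 reads) and 52.3 after alkaline hydrolysis (454 reads), a ratio of 76.6 (exact 95% interval 69.8 to 84.3). It had 3602 CPM with CF Im68 siRNA and 57.1 to 78.1 in the other 3 libraries, so this well filled unit was high in both RNase I libraries. At chromosome 8, minus strand, position 129465165, the unit had 805 CPM (3774 reads) against 8.64 (75 reads), with 587 for CF Im68 siRNA and 6.17 to 13.03 in the other 3. A unit of 2 sites on chromosome 10, minus strand, from 105148745 to 105148811, had 591 CPM (2769 reads) against 7.26 (63 reads), with 415 for CF Im68 siRNA and 9.91 to 16.7 in the other 3. Their ratios were 93.2 (74.1 to 119) and 81.4 (63.4 to 106).

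The other 3 had under 10 reads in the alkaline scrambled siRNA library. On chromosome 3, plus strand, the unit at 27040885 had 106 CPM (499 reads) against 0.461 (4 reads), with 105 for CF Im68 siRNA and 0.907 to 2.27 in the other 3, and a ratio of 231 (89.6 to 851). On chromosome 20, minus strand, the unit at 19982007 had 118 CPM (551 reads) against 0.691 (6 reads), with 338 for CF Im68 siRNA and 0.907 to 2.95 in the other 3, and a ratio of 170.0 (77.6 to 465). On chromosome X, minus strand, the unit at 92479942 had 124 reads against 0. It was 76.5-fold higher with the empty library set to a floor of 3 reads (exact 95% lower limit 61.3). It had 112 reads with CF Im68 siRNA and 0, 1 and 0 with no siRNA, CF Im25 siRNA and CF Im59 siRNA. Both RNase I libraries were thus far above the rest in each of the 6 units.

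The 6 units that were lowest after RNase I were low in both RNase I libraries. The unit at chromosome 17, plus strand, from 79989027 to 79992080, had 76.6 CPM after RNase I (359 reads) and 4453 after alkaline hydrolysis (38653 reads), and was 58.2-fold lower (52.4 to 64.7). It had 97.7 CPM with CF Im68 siRNA and 3584 to 6337 in the other 3 libraries. The unit on chromosome 2, plus strand, at 135379499 had 2.77 CPM (13 reads) against 247 (2142 reads), with 1.28 for CF Im68 siRNA and 470.1 to 710.3 in the other 3, and was 89.0-fold lower (51.9 to 167). Each of these units was low in both RNase I libraries.

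In the remaining 4, between 93.7% and 99.5% of the pooled reads of the site ended at a single nucleotide. The unit at chromosome 3, minus strand, position 96204059, had 0 reads after RNase I and 549 after alkaline hydrolysis. It was 98.8-fold lower with the floor of 3 reads (exact 95% limit 80.1). It had 1 read with CF Im68 siRNA and 1131, 591 and 777 with no siRNA, CF Im25 siRNA and CF Im59 siRNA. On chromosome 11, minus strand, the unit at 55476410 had 0 reads against 490, with 0 for CF Im68 siRNA and 1341, 652 and 736 in the same order. It was 88.2-fold lower with the same floor (exact 95% limit 71.5). Neither RNase I library held more than 1 read at either of them. The unit at chromosome 7, minus strand, position 8472850, had 1 read against 791, 427-fold lower (76.5 to 16895), with 0 for CF Im68 siRNA and 1046, 400 and 771 in the other 3. On chromosome 18, minus strand, the unit at 20577855 had 2 reads against 692, 187-fold lower (51.5 to 1546), with 0 for CF Im68 siRNA and 1188, 189 and 249 in the other 3.

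The libraries without siRNA and with CF Im68 siRNA formed a further alkaline and RNase I pair that shares no library with the scrambled siRNA pair. It differs by the siRNA too, so CF Im68 depletion and fragmentation cannot be told apart within it. Of the units called higher after RNase I with scrambled siRNA, 3309 could be tested in this pair, and 2669 (80.7%) were called higher there and 25 lower, against 25.2% called higher of all 13906 units tested in both. Of 4774 units called lower, 3815 (79.9%) were called lower there and 38 higher, against 34.6% of all. Pearson's r of the log2 ratios over the 13906 units was 0.888 and Spearman's rho 0.874, as a description over units whose sites were called on the pool of all libraries. In the further pair taken alone, 64.3% of 18818 units were called, 27.9% higher and 36.4% lower.

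**Figure D4:**
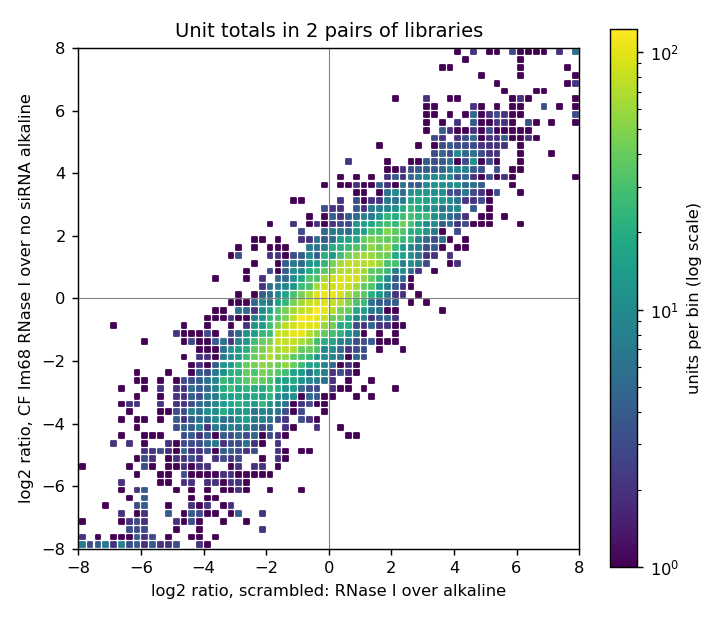
Log2 ratio of unit totals between the scrambled siRNA libraries (RNase I over alkaline, horizontal) and between CF Im68 siRNA RNase I and no siRNA alkaline (vertical) for 13906 units; colour gives the number of units per bin of the plane on a log scale, and ratios beyond the axes are drawn at their edge. Most units lie along the diagonal (Pearson's r 0.888), from lower left to upper right.

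Site use followed the same pattern, less evenly. Of the loci with a higher proximal share after RNase I, 1216 could be tested in the further pair, and 1074 (88.3%) were called higher there and 1 lower, against 41.5% called higher of all 4919. Of 1030 loci with a lower share, 566 (55.0%) were called lower there and 95 higher, against 13.3% of all. Loci with a lower share in the scrambled siRNA pair were thus more often without a call, or opposite, in a pair in which rises outnumbered falls. Over all its 6628 loci that pair had 57.5% called, 43.7% higher and 13.7% lower. Pearson's r of the change in proximal share was 0.777 and rho 0.763. For the spread of ends, the change in the probability that 2 reads share a nucleotide had r of 0.909 over 2343 sites. This r is a description over sites called on the pool of all libraries. The probability does not use the reference nucleotide, which came from the same 2 libraries as this pair.

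The number of loci called for the CF Im68 siRNA library differed between the RNase I and the alkaline control library, which may also differ in other ways than fragmentation. Against the RNase I control 24.4% of 5291 loci were called higher in proximal share and 1.78% lower, 26.2% in all. Against the alkaline control 41.2% of 6122 loci were called higher and 14.8% lower, 56% in all. Over the 4929 loci tested with both controls, 1207 were higher with the RNase I control and 1944 with the alkaline control, and 83 and 720 were lower. Of these, 45 loci were higher with the RNase I control and lower with the alkaline control, and 15 were the reverse. Both comparisons share the CF Im68 siRNA library.

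Sites whose ends fell on few nucleotides were lower after RNase I. Sites were put in classes by the mean probability that 2 reads share a nucleotide in the libraries without siRNA and with CF Im68 siRNA, which the scrambled siRNA comparison did not use. In the 616 sites under 20% the median log2 ratio, RNase I over alkaline, was 0.49, with 38.3% at least 2-fold higher and 18.5% at least 2-fold lower. In the 859 sites from 80% it was -0.54, with 21.7% at least 2-fold higher and 39.8% at least 2-fold lower. The 3 classes between had medians of 0.17, -0.00 and -0.21. Which library set the classes mattered: from the library without siRNA alone the medians of the lowest and highest class were 0.47 and -1.34, and from the CF Im68 siRNA library alone 0.29 and -0.16. Between the alkaline libraries without siRNA and with scrambled siRNA, with classes from the CF Im25 siRNA library, they were 0.01 and -0.19. Over 10573 sites rho of the class value and the log2 ratio was -0.124, a weak relation.

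A few sites were nearly confined to 1 of the 2 scrambled siRNA libraries. Of 9958 sites with at least 100 reads after alkaline hydrolysis, 117 (1.17%) had at most 2 after RNase I. In the library without siRNA 110 of these had at least 100 reads, and in the CF Im68 siRNA library 98 had at most 10. Of 6576 sites with at least 100 reads after RNase I, 40 (0.608%) had at most 2 after alkaline hydrolysis, with 34 at 100 reads or more in the CF Im68 siRNA library and 34 at 10 or fewer without siRNA. An example is chromosome 13, minus strand, position 45911359, with 413 reads after RNase I, 527 with CF Im68 siRNA and 1, 1, 6 and 4 in the alkaline libraries with scrambled siRNA, no siRNA, CF Im25 siRNA and CF Im59 siRNA. The counts in the further libraries are not given over all 9958 and 6576 sites, so they are descriptions only. A cut of 100 reads is a lower level in a deeper library. At least 95% of the pooled reads ended at 1 nucleotide at 41.0% of the 117 sites, against 7.66% of the 9958. For the 40 sites it was 17.5%, against 2.71% of the 6576.

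Of the 10 nuclear positions with the highest mean share over the 2 scrambled siRNA libraries, 5 held a smaller share after RNase I and 5 a larger one. With mitochondrial positions included, the top 100 positions of each library together held 17.2% of the reads after RNase I and 18.9% after alkaline hydrolysis. They held 20.0% for CF Im68 siRNA and 20.7% to 22.1% in the other 3, so the methods overlapped in this share. It was not computed for nuclear positions alone. The top position, chromosome 12, plus strand, 6647537, held 0.541% of all reads after RNase I (28953 reads) and 2.49% after alkaline hydrolysis (240888 reads). It held 0.507% with CF Im68 siRNA and 2.55% to 3.13% in the other 3. The position at chromosome 16, plus strand, 89629474, held 0.335% and 1.71%, with 0.532% for CF Im68 siRNA and 1.51% to 1.70% in the other 3. At chromosome 10, plus strand, the nucleotide at 79800455 held 0.270% after RNase I and 0.969% after alkaline hydrolysis, while that at 79800446 held 0.389% and 0.323%. After RNase I the upstream of these nucleotides, 9 nt away, was thus the more used of the pair. Among the 5 positions with a larger share, chromosome 1, plus strand, 93307477, held 0.491% after RNase I and 0.209% after alkaline hydrolysis, with 0.531% for CF Im68 siRNA and 0.240% to 0.293% in the other 3. The methods overlapped at chromosome 5, minus strand, 81571885, with 0.453% and 0.304%, 0.346% for CF Im68 siRNA and 0.394% to 0.482% in the other 3. They also overlapped at chromosome 5, plus strand, 85916582, with 0.325% and 0.250%, 0.195% for CF Im68 siRNA and 0.295% to 0.347% in the other 3. The remaining positions of the 5 did not overlap.

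Nuclear chromosomes differed in their typical ratio. Among 23 chromosomes with at least 100 units, the median log2 ratio of unit totals was lowest on chromosomes 16 (-0.77), 19 (-0.75) and 17 (-0.62) and highest on chromosomes 13 (0.08), X (0.06) and 4 (0.01). In the further pair the same chromosomes had medians of -0.65, -0.69 and -0.61, and of 0.01, 0.07 and -0.11. Between the alkaline libraries without siRNA and with scrambled siRNA all 23 medians lay between -0.13 and 0.04.

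The mitochondrial genome is transcribed from both strands into long precursors whose products carry short tails. Reads on its minus strand made up 3.93% of the RNase I library (exact 95% interval 3.91% to 3.94%) and 1.33% of the alkaline library (1.32% to 1.33%). The share was 8.12% with CF Im68 siRNA and 0.542% to 0.930% in the other 3. Reads on its plus strand went the other way, with 0.233% (0.228% to 0.237%) and 0.581% (0.576% to 0.585%), with 0.255% for CF Im68 siRNA and 0.532% to 0.736% in the other 3. With each position counted once, the shares were 0.578% and 0.444% on the minus strand and 0.141% and 0.204% on the plus strand. The libraries were not thinned for this, and how far these shares depend on depth was not tested. Levels of mitochondrial sites are CPM of the whole library. Of 49 plus strand sites tested, 11 were at least 2-fold higher after RNase I and 25 lower (73.5% called), and of 124 minus strand sites 38 were higher and 40 lower (62.9% called).

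A single site carried most of the minus strand reads. The site at position 230 had 33450.2 CPM after RNase I (179025 reads) and 8349 after alkaline hydrolysis (80905 reads), a ratio of 4.01 (3.97 to 4.04). It had 63203 CPM with CF Im68 siRNA and 3341 to 6377 in the other 3 libraries. The sites at 372 and 122 were 3.43-fold and 3.55-fold higher, whereas the site at 90 was 5.52-fold lower (4.96 to 6.15). The site at 198 was 1.27-fold lower, with 531 CPM against 672. Minus strand sites close to each other thus moved in opposite directions.

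On the plus strand 4 of the 5 most abundant sites were lower after RNase I. The site at position 12139 had 188 CPM (1004 reads) against 2739 (26544 reads), 14.6-fold lower (13.7 to 15.6), with 133 for CF Im68 siRNA and 1777 to 3410.0 in the other 3. The site at 14747 had 5.79 CPM (31 reads) against 506 (4902 reads), 87.3-fold lower (61.4 to 129), with 7.16 for CF Im68 siRNA and 303 to 679 in the other 3, and 99.7% of its pooled reads ended at 1 nucleotide. The site at 5513 was 8.60-fold lower, with 42.8 CPM against 368, 85.7 for CF Im68 siRNA and 249 to 440 in the other 3. The site at 7040 was 3.05-fold lower, with 95.3 CPM against 291, but the methods overlapped there, at 203 for CF Im68 siRNA and 175 for no siRNA. The site at 3234 had 1038 CPM against 779, a ratio of 1.33 (1.29 to 1.38), with 759 for CF Im68 siRNA and 668 to 1550.4 in the other 3, so that the methods overlapped at this site too. Positions are those of the files and were not matched to mitochondrial genes.

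**Figure D5:**
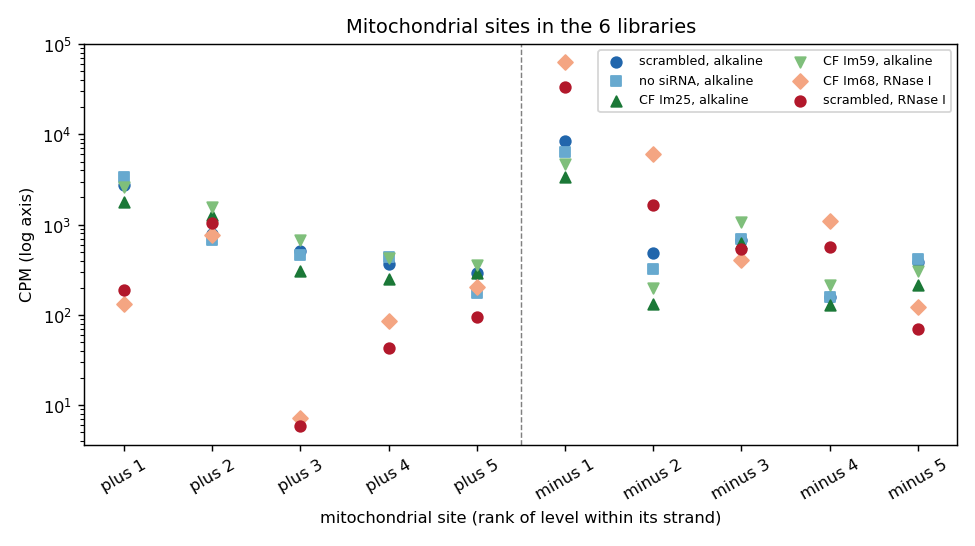
CPM of the whole library (log axis) in the 6 libraries at the 5 most abundant mitochondrial sites of the plus strand (left of the dashed line) and of the minus strand (right), each point 1 library. The RNase I libraries (red circles and orange diamonds) are below the 4 alkaline libraries at sites plus 1 and plus 3, by 14.6-fold and 87.3-fold with scrambled siRNA, and above them at site minus 1, by 4.01-fold.

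Reads outside the kept sites made up 8.25% of the RNase I library and 8.54% of the alkaline library. Of those on nuclear chromosomes, 8.79% lay within 200 nt upstream of a kept site after RNase I and 5.26% after alkaline hydrolysis, with 11.2% for CF Im68 siRNA and 5.62% to 6.13% in the other 3. Within 200 nt downstream lay 4.56% and 3.66%, with 5.64% for CF Im68 siRNA and 3.72% to 3.995% in the other 3. Both sides of sites thus held more of the scattered reads in both RNase I libraries, and the gap between the scrambled siRNA libraries was larger upstream.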

How the data were processed

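A-seq 3' end counts of HEK293 cells were compared between 2 scrambled siRNA libraries, made with RNase I or alkaline hydrolysis. The deposited files hold unscaled whole-number counts of reads per 3' end position and strand, 1 library to a file, and the submitters' processing notes name hg19 and GRCh37. For the aligner, the filters and the handling of PCR duplicates or internal priming, the method was not given in the sources used here.

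Sites were formed by taking the highest remaining position of the equal-weight pool of 6 libraries with its ends within 25 nt, and kept from a mean of 1 CPM. The 28114 units gave 8999 pairs of most used sites, each with at least 5% of its unit in the mean over libraries. Changes were called by rules of size (20 points or 2-fold, at least 50 reads) together with Newcombe or exact conditional 95% intervals. Shares of a library have exact binomial (Clopper-Pearson) intervals. All intervals and floors cover counting error only, and PCR copies are not independent molecules. For ends within a site, the probability that 2 reads share a nucleotide is an unbiased Simpson estimate, which does not depend on depth. Correlations of log2 ratios used 0.5 reads added to each count.

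Members, rules and lists were chosen with earlier results of these data known. The loci described in full were the 6 largest rises and 6 largest falls in proximal share (at least 100 reads in both libraries) and in unit total (at least 100 reads in 1 library, ranked by the interval limit nearer to 1), the 3 largest rises and falls in the Simpson probability, and the 5 most abundant mitochondrial sites of each strand. Further single positions were picked after their values had been seen: the most used nucleotides and the site present in RNase I libraries only. Planned gene and marker lists were not used here, since no annotation of the files' build was used. Alternatives were other site windows, thresholds, scalings and thinning. The scripts were tested on simulated data. Python 3.11.15, numpy 2.4.6, pandas 2.3.3 and scipy 1.17.1 were used.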

Additional observations from a re-analysis of the deposited data

How the results depend on the processing

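No paired analysis was possible because each group held 1 library. Of the settings tried, none turned a direction. With a minimum of 20 or 200 reads in place of 50, loci called higher in proximal share numbered 1896 and 376, loci called lower 1627 and 318, units called higher 5125 and 1582, and units called lower 7957 and 2239, as the number tested changed. A threshold of 40 points left 511 and 447 loci. Across the settings that kept the 20-point rule, between 41.9% and 53.2% of tested loci were called. The median change of the proximal share was 5.30 points with a site window of 10 nt, 0.358 with 50 nt and 0.455 for pairs at least 100 nt apart, against 1.62. The median log2 ratio of unit totals (-0.32) was -0.36 with a window of 10 nt, -0.37 and -0.27 with gaps of 2 and 10 kb, -0.42 with a minimum of 20 reads, -0.21 without sites that had 95% of their reads at 1 nucleotide, -0.047 after thinning, -0.14 by TMM and -0.10 by median of ratios. With a window of 10 nt, after thinning and with at least 1000 reads, the median change of the probability that 2 reads share a nucleotide was -5.14, -7.45 and -7.93 points, and that of the share at the reference nucleotide -4.95, -7.82 and -8.28. The change of the upstream share was 3.26 with a window of 10 nt, 6.08 with at least 50 reads and 7.56 with at least 1000. A narrower window drops the ends 11 to 25 nt away. With each position counted once, RNase I against alkaline hydrolysis had 0.578% against 0.444% on the mitochondrial minus strand and 0.141% against 0.204% on the plus strand. Outside kept sites it was 53.6% against 64.2%. The libraries kept their unequal depth in this setting. For CF Im68 siRNA a minimum of 200 reads gave 422 higher and 23 lower against the RNase I control and 1028 and 324 against the alkaline control, where thinning gave 566 lower. The cause of these shifts was not tested beyond the construction of each setting. The RNase I library is the smallest, and sites under 200 reads in it gave no value for the spread of ends.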
